A study of Mus musculus with 12 samples.

Results

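The nuclear-encoded genes of the mitochondrial respiratory chain were described in mice lacking Prkch, which encodes the eta isoform of protein kinase C, and in their controls. Members were all genes with a probe set carrying exactly 1 gene symbol that begins with Nduf, Sdh, Uqcr, Cox4, Cox5, Cox6, Cox7, Cox8 or Atp5. The rule found 95 genes of 20262 over both array types: 35 of complex I, 4 of complex II, 8 of complex III, 19 of complex IV, 17 of complex V and 12 that encode assembly factors. Ndufa4 and its paralog Ndufa4l2 were counted with complex IV, and Cox7a2l, which helps complexes III and IV associate, with the assembly factors. Subunits encoded by mitochondrial DNA carry symbols with other beginnings, so the rule could not take them in.

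All mice carried Apoe-/-, including the controls, which therefore clear lipoproteins poorly; the knockout mice were Prkch-/-Apoe-/-, and the strain was C57BL/6J. Macrophages were unstimulated, thioglycolate-elicited peritoneal cells from female mice fed a regular diet, with 3 arrays in each genotype at 18, 17 and 27 weeks of age (replicates 1, 2 and 3). For liver, each genotype had 2 arrays of males aged 20 weeks, given high-fat diet for 12 weeks and re-fed. For aorta, each genotype had a single pool of RNA of 4 fed males of that age and diet on 1 array, and hence no replicates. Which exons the Prkch allele lacks is not in the labels.

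The respiratory chain passes electrons from NADH and succinate to oxygen and stores the energy as a proton gradient across the inner mitochondrial membrane. Complex I oxidizes NADH, complex II oxidizes succinate, complex III passes electrons to cytochrome c, complex IV reduces oxygen, and complex V, the ATP synthase, uses the gradient to make ATP. Hepatocytes rely on it heavily, muscle and brown fat use tissue-restricted isoforms of several complex IV subunits, and macrophages shift between oxidative phosphorylation and glycolysis with activation.

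Values of the macrophage and liver arrays are log2 probe set summaries, and those of the aorta arrays are linear signal. Array medians lay between 6.57 and 6.77 in macrophages, between 5.88 and 5.93 in liver, and at 27.8 and 30.1 units of signal in the aorta pools. The brighter Prkch probe set read 9.31 to 9.94 in control and 8.79 to 9.36 in knockout macrophages, so over the 6 arrays the genotypes overlapped. It read 6.57 and 6.87 in control and 5.93 and 5.65 in knockout liver, and 17.2 and 9.94 units of signal in the control and knockout aorta pools, both below the filter of 32.6 used there. Exact ties between deposited values put the macrophage arrays in 2 sets, called batches here. Batch 1 held control replicates 1 and 2 and knockout replicate 1, and batch 2 held control replicate 3 and knockout replicates 2 and 3. Within each batch the knockout arrays lay below the controls for Prkch: 9.94 and 9.86 against 9.36 in batch 1, and 9.31 against 8.79 and 8.87 in batch 2. The batches differed in how many values were identical. Of 35557 values per array, pairs of arrays of batch 1 shared 53 to 69 identical ones and pairs of liver arrays 48 to 103, whereas pairs of batch 2 shared 16075 to 18000. So 42 of 92 members and 9944 of 15039 genes tested had the same value on at least 2 of the 3 arrays of batch 2. Such values carry no spread of their own between these arrays, and standard errors, p-values and counts without overlap in macrophages rest on them; what made them identical is not in the labels. Knockout replicate 2 stood apart from the other macrophage arrays in markers of B cells and fibroblasts.

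Promoters are shown for 4 members. Atp5k, Uqcr11 and Atp5j2 were taken from the 16 members lower on every knockout than on every control macrophage array, by brightest probe set. Cox8b, a muscle and brown fat isoform, had the lowest knockout minus control difference of the members in liver. Sequences are RefSeq windows from 250 bases before to 50 bases after the gene's start, on assembly GRCm38.p6, written 5′ to 3′ on the gene's strand. Capitals mark matches, on either strand, to the core of nuclear respiratory factor 1 (GCGCATGC), the ETS core (CCGGAAG), the YY1 core (AAGATGGC), the estrogen-related receptor site (AAGGTCA), the CREB site (TGACGTCA) or the TATA box (TATAAA). Nuclear respiratory factor 1, the ETS factor GABP, YY1 and estrogen-related receptors are known regulators of respiratory chain genes.
Atp5k, chr5:108434350-108434649, minus strand: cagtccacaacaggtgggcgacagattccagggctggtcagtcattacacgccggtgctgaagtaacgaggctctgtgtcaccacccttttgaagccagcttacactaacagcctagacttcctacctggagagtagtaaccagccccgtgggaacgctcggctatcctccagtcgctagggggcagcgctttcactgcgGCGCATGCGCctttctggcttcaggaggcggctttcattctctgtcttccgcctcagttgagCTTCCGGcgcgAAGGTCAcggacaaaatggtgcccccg
Uqcr11, chr10:80406772-80407071, minus strand: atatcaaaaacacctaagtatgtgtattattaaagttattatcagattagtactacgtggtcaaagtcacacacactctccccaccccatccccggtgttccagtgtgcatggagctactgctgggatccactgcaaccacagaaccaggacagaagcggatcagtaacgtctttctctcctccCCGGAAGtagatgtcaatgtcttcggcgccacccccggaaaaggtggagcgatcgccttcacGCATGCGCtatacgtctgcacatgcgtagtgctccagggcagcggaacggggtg
Atp5j2, chr5:145191492-145191791, minus strand: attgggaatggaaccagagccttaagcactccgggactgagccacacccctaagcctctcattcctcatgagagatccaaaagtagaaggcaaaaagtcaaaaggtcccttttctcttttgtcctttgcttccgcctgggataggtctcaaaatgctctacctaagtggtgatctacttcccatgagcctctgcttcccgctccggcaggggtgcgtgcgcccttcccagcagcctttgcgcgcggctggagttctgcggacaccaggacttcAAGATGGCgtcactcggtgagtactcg
Cox8b, chr7:140900397-140900696, minus strand: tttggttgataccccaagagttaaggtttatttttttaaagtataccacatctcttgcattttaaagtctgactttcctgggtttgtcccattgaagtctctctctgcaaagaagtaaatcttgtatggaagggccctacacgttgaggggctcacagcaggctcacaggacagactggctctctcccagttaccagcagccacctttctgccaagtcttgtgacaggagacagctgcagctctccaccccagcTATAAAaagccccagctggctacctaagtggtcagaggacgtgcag

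The Atp5k window held 2 overlapping matches to the core of nuclear respiratory factor 1, from base -50 to -43 and from -48 to -41 relative to the start, where the first transcribed base is 1. It also held an ETS match from base 13 to 19 and an estrogen-related receptor match from base 24 to 30. In the Uqcr11 window an ETS match lay from -66 to -60 and a match to the nuclear respiratory factor 1 core from -4 to 4. The Atp5j2 window held a YY1 match from base 24 to 31, and the Cox8b window a TATA box from base 5 to 10. Of 95 members, 79 matched the table, with 84 windows. The nuclear respiratory factor 1 core was in 12 (14.3%) of these, against 2.71% of all 32851 windows. The ETS core was in 21 (25.0%) against 8.86%, and the YY1 core in 10 (11.9%) against 2.75%. The estrogen-related receptor site was in 7 (8.33%) against 4.72%, the CREB site in 4 (4.76%) against 1.79%, and the TATA box in 10 (11.9%) against 13.6%. Of the genes with a YY1 match, 7 belonged to complex I and 3 to complex V. The windows of Ndufa4 and Ndufa13, also lower on every knockout than on every control macrophage array, held none of the motifs. Whether matches go with the macrophage differences was not tested. A match is a run of letters in the window and no measure of binding.

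In macrophages lacking Prkch, most respiratory chain genes read slightly lower than in controls, and no single member passed the test. Of 92 members past the filter on dim genes, 80 had a lower mean on the knockout arrays, with a median difference of -0.14 on the log2 scale, against 9543 of 15039 genes and a median of -0.04 over all genes tested. At a limma adjusted p under 0.05, 0 members were called, as were 0 genes over all (0%). At an unadjusted p under 0.05, 11 members were lower and 0 higher, against 87 genes lower over all (0.578%). For 16 members, 15 of them subunits, every knockout array lay below every control array, against 241 genes over all (1.60%); the reverse held for 0 members. Of 93 members on this array, only Cox7b2, a testis isoform, did not pass the filter. A gene with the same value on a control and a knockout array cannot count as without overlap, so the counts were also taken over genes with 3 different values in batch 2, a choice made after seeing the data. Over these, 47 of 50 members were lower, with a median of -0.18 against -0.04 for all 5095 such genes. In a fit over them 0 members and 0 genes were called, 5 members were lower at an unadjusted p under 0.05 (0.844% of all such genes), and 14 lay below every control (3.51%).

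By complex, the median difference was -0.15 over 34 subunits of complex I (31 lower), -0.16 over the 4 of complex II (3 lower), -0.19 over 8 of complex III (6 lower), -0.11 over 17 of complex IV (16 lower) and -0.15 over 17 of complex V (17 lower). The 12 assembly factors had a median of -0.02, with 7 lower. The medians of the 5 complexes thus lay below that of all genes, and that of the assembly factors did not. Among the assembly factors, Ndufaf3, needed to build complex I, had -0.30 (SE 0.16), and at the other end Ndufaf6 had 0.15 (SE 0.12).

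**Figure D1:**
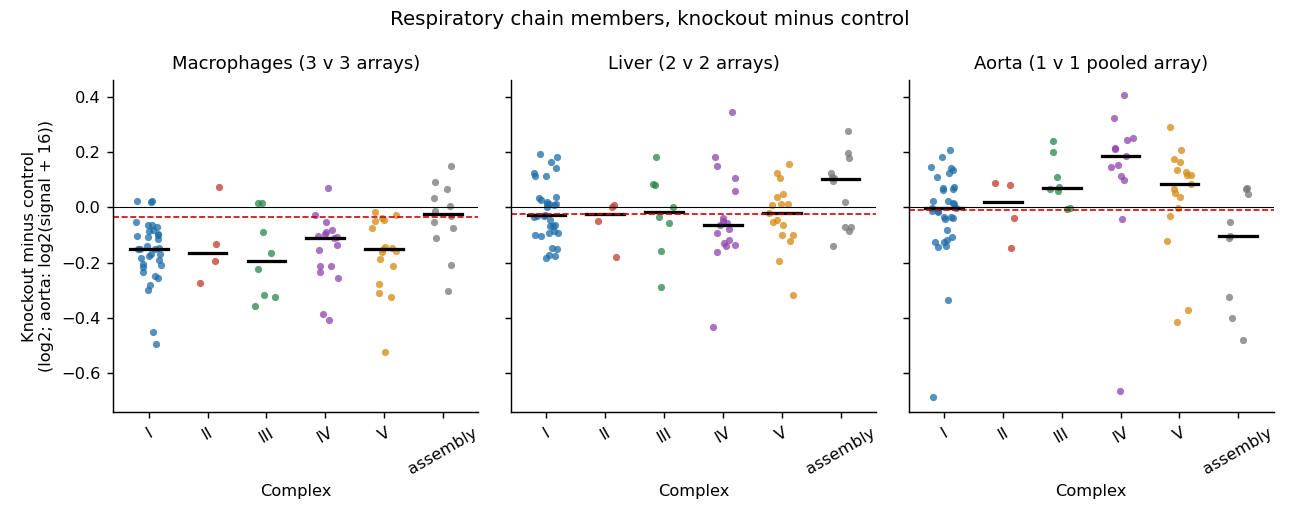
Knockout minus control difference of each member (points) by complex, on the log2 scale, for macrophages, liver and aorta (log2(signal + 16)); black bars are medians of the complex and the dashed red line is the median of all genes tested. In macrophages the bars of complexes I to V sit between -0.19 and -0.11, below the line at -0.04; in liver they sit between -0.07 and -0.02, and in the aorta between 0.00 and 0.19.

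The difference was larger in one batch than in the other. Within batch 1, knockout replicate 1 against control replicates 1 and 2, 76 of 92 members were lower, with a median of -0.19 where all genes had 0.03. Within batch 2, knockout replicates 2 and 3 against control replicate 3, 67 were lower and 17 had a difference of exactly 0, as had 6192 of 15039 genes; the members' median was -0.05 and that of all genes 0.00. With batch as a block the median was -0.14, 79 of 92 were lower and 0 were called. Of these, 9 had an unadjusted p under 0.05, against 122 genes lower over all (0.811%).

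Single arrays also differed. The members' median deviation from the control mean was -0.03, 0.06 and -0.05 on control replicates 1, 2 and 3. It was -0.18, -0.18 and -0.06 on knockout replicates 1, 2 and 3. Over all genes the same median was 0.04, 0.03 and -0.08 on the controls and 0.07, -0.09 and -0.08 on the knockouts. Relative to all genes, members were lowest on knockout replicate 1, at -0.25, while knockout replicate 2 stood at -0.08 and replicate 3 at 0.02, among the controls at -0.07, 0.02 and 0.02. The count of members at an unadjusted p under 0.05 was 11, and 20 without knockout replicate 3. It was 5 without knockout replicate 1, 3 without knockout replicate 2, 3 without control replicate 1, 2 without control replicate 2 and 16 without control replicate 3. It was 5 with each array centred on its median, which also moved the all-gene median from -0.04 to 0.00. In each of these fits 0 members were called. Apart from the main fit, genes over all at that unadjusted p were not counted. Whether these counts moved with those of all genes was not tested.

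**Figure D2:**
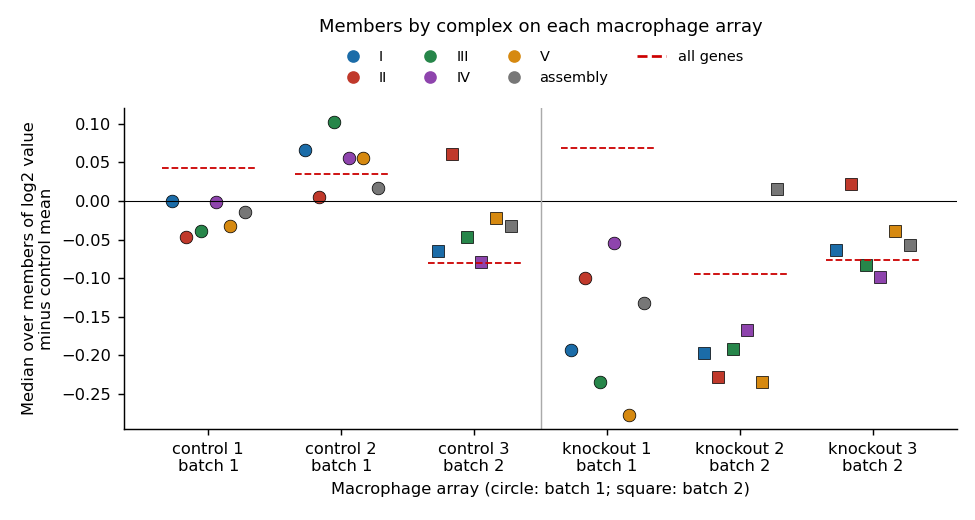
Median over the members of each complex of the log2 value minus the control mean, for each macrophage array; circles are batch 1, squares batch 2, and dashed red lines the median of all genes tested. On knockout replicates 1 and 2 complexes I, III and V lie between -0.28 and -0.19, on knockout replicate 3 between -0.08 and -0.04, and on control replicate 3 between -0.06 and -0.02.

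Complex V, the ATP synthase, held the member with the largest macrophage difference. Atp5k, the small subunit e that helps ATP synthase form dimers, had log2 values of 9.09, 9.21 and 9.01 on the control arrays and 8.55, 8.33 and 8.87 on the knockout arrays. Each knockout array lay below the lowest control, and knockout replicate 3 came closest to it. The knockout minus control difference was -0.52 (SE 0.15), with limma adjusted p = 1.00; it was -0.60 within batch 1 and -0.41 within batch 2. Atp5j2, subunit f of the membrane sector, had 10.94, 11.13 and 10.84 on control and 10.65, 10.49 and 10.80 on knockout arrays. Atp5e, the epsilon subunit of the central stalk, had 9.27, 9.47 and 9.25 against 8.83, 9.03 and 9.20. Neither gene's groups overlapped, and the differences were -0.32 (SE 0.12) and -0.31 (SE 0.12); within batch 2 they were -0.19 and -0.14.

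The alpha and beta subunits of complex V differed little. Atp5b, the catalytic beta subunit, had 12.32, 12.33 and 12.26 on control and 12.47, 12.10 and 12.26 on knockout arrays. Atp5a1, the alpha subunit, had 12.34, 12.45 and 12.37 against 12.45, 12.20 and 12.39. The knockout arrays fell on both sides of the control mean for both genes, with differences of -0.03 (SE 0.11) and -0.05 (SE 0.09). In a grouping made after these values were seen, the 5 subunits of the F1 part had a median difference of -0.05 and the other 12 one of -0.16. The 6 tested core subunits of complex I, which form its catalytic arm, had a median of -0.09 (4 lower), and its 28 accessory subunits one of -0.17 (27 lower). These splits are descriptions without a test.

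Among complex I subunits, Ndufa1, a small accessory subunit of the membrane arm, had 9.74, 9.76 and 9.85 on control and 9.14, 8.99 and 9.74 on knockout arrays. Knockout replicates 1 and 2 lay well below the controls, and replicate 3 lay at the level of the lowest control. The difference was -0.49 (SE 0.19), with limma adjusted p = 1.00. Ndufb7, another accessory subunit, had 9.71, 9.76 and 9.44 against 9.31, 8.89 and 9.37, without overlap, and a difference of -0.45 (SE 0.16). Ndufa13, an accessory subunit also known as Grim19, had 8.85, 8.70 and 8.60 against 8.50, 8.31 and 8.50, again without overlap, and a difference of -0.28 (SE 0.10). Of the 6 core subunits tested, 4 were lower: Ndufs7 at -0.15, Ndufs8 at -0.14, Ndufv2 at -0.10 and Ndufs3 at -0.07. The other 2 had a slightly higher mean. Ndufs1, which carries iron-sulfur clusters, had 10.07, 10.04 and 10.09 against 10.08, 10.09 and 10.09, a difference of 0.02 (SE 0.07). Its value was the same on all 3 arrays of batch 2. Ndufv1, where NADH is oxidized, had 9.59, 9.25 and 9.21 against 9.44, 9.28 and 9.39, and 0.02 (SE 0.12). Ndufa12, an accessory subunit, had the highest difference of the complex, at 0.02 (SE 0.08).

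In complex IV, Ndufa4, a subunit first assigned to complex I, had 11.11, 11.14 and 11.21 on control and 10.61, 10.67 and 10.96 on knockout arrays. The groups did not overlap, and the difference was -0.41 (SE 0.11), with limma adjusted p = 1.00. It was -0.51 within batch 1 and -0.39 within batch 2, and with batch as a block its limma adjusted p was 0.93. Cox4i1, the widespread form of a regulatory subunit, had 10.75, 10.84 and 10.52 against 10.34, 10.06 and 10.56. Knockout replicate 3 lay just above control replicate 3, and the difference was -0.38 (SE 0.15), or -0.21 within batch 2. Cox8c, a testis isoform, was the only complex IV member with a higher mean, at 0.07 (SE 0.08).

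In complex III, the small subunit Uqcr10 had 8.77, 9.02 and 8.62 on control and 8.34, 8.35 and 8.64 on knockout arrays. Knockout replicate 3 again lay among the controls, and the difference of -0.36 (SE 0.14) was -0.55 within batch 1 and -0.12 within batch 2. Uqcr11, another small subunit, had 8.48, 8.75 and 8.55 against 8.23, 8.11 and 8.46, without overlap, and a difference of -0.33 (SE 0.12). On its dimmer probe set the groups overlapped, with 8.22, 8.40 and 7.89 against 8.06, 7.74 and 7.89, a difference of -0.27. Uqcrc2, a core protein, had the highest difference of complex III, at 0.02 (SE 0.10). Its knockout array in batch 1 lay below both controls, and neither knockout array in batch 2 lay above the control. Uqcrb was the other member of complex III with a higher mean. Its knockout array in batch 1 also lay below both controls, and those in batch 2 lay on either side of the control. With unequal numbers of each genotype per batch, both higher means also carry the step between batches. In complex II, Sdha, the flavoprotein that binds succinate, had 11.20, 11.20 and 11.34 against 11.28, 11.33 and 11.34, a difference of 0.07 (SE 0.08). Sdhc, a membrane anchor, had 10.07, 10.16 and 9.75 against 9.995, 9.43 and 9.74, a difference of -0.27 (SE 0.17). Sdhb, the iron-sulfur subunit, had -0.19 (SE 0.11), and Sdhd, the other anchor, -0.13 (SE 0.13). The groups overlapped for all 4 genes of complex II.

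**Figure D3:**
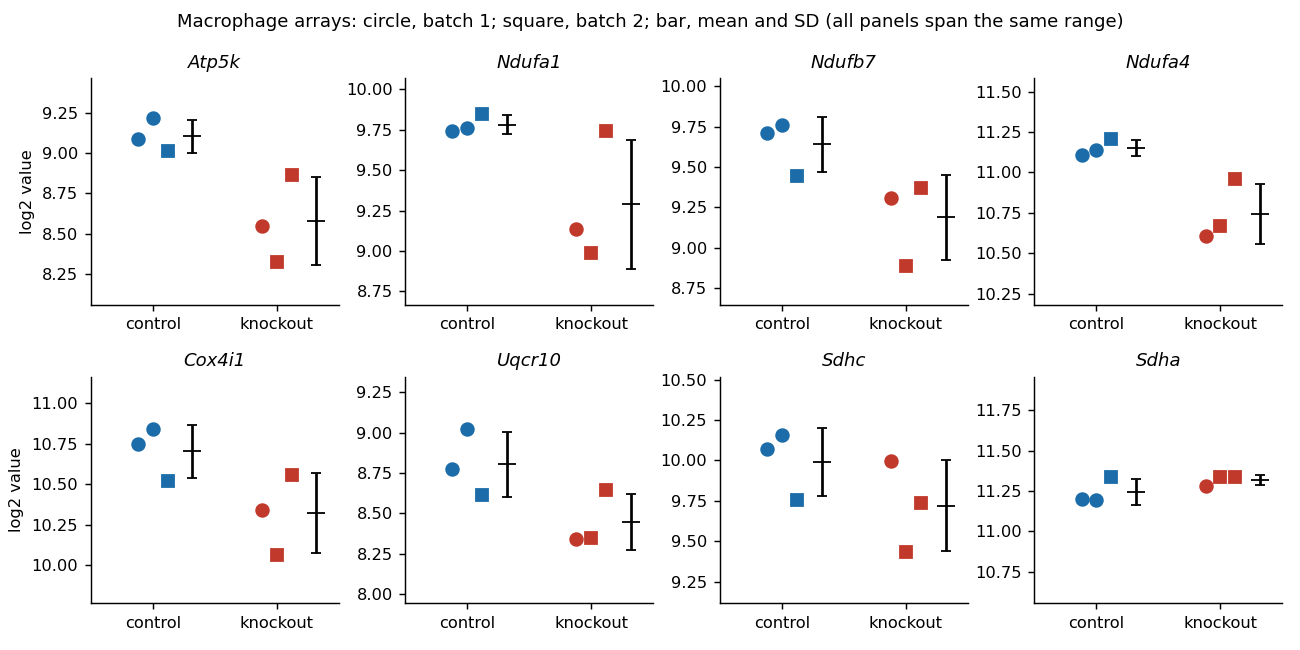
Log2 values of 8 members on the 6 macrophage arrays (circles batch 1, squares batch 2, bars mean and SD, n = 3 per genotype); the panels have different positions but span the same range. Atp5k, Ndufb7 and Ndufa4 have all knockout arrays below all control arrays, while Sdha has the genotypes at about the same height.

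Several subunits have a widespread form and forms restricted to a few tissues, and the 15 isoforms of a list of such forms had a lower mean in knockout macrophages, with a median difference of -0.11. The list holds forms of Cox4i, Cox6a, Cox6b, Cox7a, Cox8, Ndufa4 and Atp5g and leaves out Cox8c, which had a higher mean, and Cox7b, at -0.14 (SE 0.15). None was called. Cox7a2, a widespread form, had 9.37, 9.50 and 9.33 on control and 9.09, 9.08 and 9.33 on knockout arrays, a difference of -0.23 (SE 0.10), and its muscle form Cox7a1 had -0.05 (SE 0.08). For Cox6a1 the difference was -0.21 (SE 0.10), and for its muscle form Cox6a2 -0.09 (SE 0.11). Cox6b1 had -0.26 (SE 0.17) and the testis form Cox6b2 -0.11 (SE 0.10). For Cox8a it was -0.09 (SE 0.10), and for Cox8b -0.03 (SE 0.08). Cox4i2, the lung form that responds to low oxygen, had -0.10 (SE 0.12), and Ndufa4l2 -0.11 (SE 0.10). Cox6a2, Cox8b and Ndufa4l2 each had the same value on all 3 arrays of batch 2. In batch 1, Cox6a2 had 7.29 and 7.43 on control and 7.33 on knockout arrays, and Cox8b 6.07 and 6.13 against 6.10. Ndufa4l2 had 6.31 and 6.22 against 6.15. With unequal numbers of each genotype per batch, such differences also carry the step between batches. Cox4i2, Cox6b2, Cox8b and Ndufa4l2 lay below the median of every macrophage array. The c subunit of the ATP synthase ring has 3 genes that encode the same mature protein; their differences were -0.16 (SE 0.15) for Atp5g1, -0.21 (SE 0.11) for Atp5g2 and -0.04 (SE 0.11) for Atp5g3.

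Other genes that work with the chain were read beside the members, and 0 of them were called in macrophages. Mitochondrial ribosomal proteins, which translate the subunits encoded by mitochondrial DNA, were lower for 70 of 77, with a median difference of -0.10; Mrpl22 had -0.35 and Mrps18a -0.33. Import components were lower for 12 of 15, with a median of -0.12; Tomm5, a small outer membrane component, had -0.34 and Tomm7 -0.32. Assembly factors of complexes III and IV were lower for 17 of 22, with a median of -0.08; Coa3 had -0.31 and Cox17, a copper chaperone, -0.29. The tricarboxylic acid cycle, which feeds the chain, had a median of 0.02 with 6 of 15 lower. Regulators of mitochondrial biogenesis had a median of -0.02 with 8 of 14 lower, and the carriers of adenine nucleotides and phosphate one of -0.06 with 4 of 6 lower. Cytosolic ribosomal proteins, which lie outside mitochondria, were lower for 48 of 57, with a median of -0.09; Rps19 had -0.35.

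Markers of other cell types also differed between these arrays, with 0 of them called. Fibroblast markers were lower for 5 of 5 tested, with a median difference of -0.69, and mesothelial markers for 7 of 8, with -0.25. B cell markers were higher for 5 of 5, with 0.24, and macrophage markers for 5 of 8, with 0.17. The median log2 level of all 6 B cell markers measured ran from 6.92 to 8.03 on control and from 6.79 to 9.18 on knockout arrays. That of all 6 fibroblast markers measured ran from 8.03 to 9.05 and from 6.90 to 8.81. On knockout replicates 1, 2 and 3, the 5 tested fibroblast markers deviated from the control mean by a median of 0.20, -1.69 and -0.71. The 5 tested B cell markers deviated by -0.62, 1.59 and -0.32. Knockout replicates 1 and 2 had opposite signs for both lists. The members' median was -0.18 on both arrays, and relative to all genes it was -0.25 on replicate 1 and -0.08 on replicate 2. The part of these cells in the members' difference was not tested. In such bulk samples, fewer cells of a type and less RNA per cell cannot be told apart.

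In liver, the members showed no common direction between the genotypes. Of 92 members, 50 were lower and 42 higher in the knockout, with a median difference of -0.03 against -0.02 over all genes. By limma's adjusted p 0 members were called, where 1 of 15942 genes was (0.00627%). At an unadjusted p under 0.05 there was 1 member, Cox8b, against 684 genes over all (4.29%). The median was -0.03 for complex I, -0.02 for complex II, -0.02 for complex III, -0.07 for complex IV, -0.02 for complex V and 0.10 for the assembly factors (8 of 12 higher). Without control replicate 1 the members' median was 0.02, without knockout replicate 2 it was 0.00, and without knockout replicate 1 it was -0.04. Each of these fits leaves a single array in 1 genotype.

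Cox8b, the muscle and brown fat form of a small complex IV subunit, had log2 values of 5.88 and 5.74 in control livers and 5.49 and 5.28 in knockout livers. Both knockout arrays lay below both controls, and the difference was -0.43 (SE 0.14), with limma adjusted p = 1.00. Each of these values lay below the median of its array, so the gene read dim in both genotypes. In these livers markers of adipocytes were lower for 4 of 4 (median -0.36), those of brown adipocytes, which include Cox8b, for 5 of 6 (median -0.23), those of fibroblasts for 5 of 6 (median -0.27) and those of macrophages for 7 of 8 (median -0.23). Their part in the Cox8b difference was not tested. Ndufa4l2, a paralog of Ndufa4 known to respond to low oxygen, had 5.92 and 5.91 in control and 6.44 and 6.07 in knockout livers. The control values lay at the medians of their arrays, 5.90 and 5.91. Both knockout arrays were higher, replicate 1 more so, and the difference was 0.34 (SE 0.16), with limma adjusted p = 1.00.

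Atp5d, the delta subunit of the ATP synthase stalk, had 11.60 and 11.60 in control and 11.12 and 11.46 in knockout livers, a difference of -0.32 (SE 0.15). Uqcrc1, a core protein of complex III, had 11.25 and 11.10 against 10.76 and 11.02, a difference of -0.29 (SE 0.15). In both genes knockout replicate 1 was the lowest array. The highest differences were 0.19 (SE 0.14) for Ndufa6 in complex I, 0.18 (SE 0.17) for Uqcrh in complex III and 0.16 (SE 0.14) for Atp5md in complex V, and the lowest in complex I was -0.18 (SE 0.21) for Ndufb3. In complex II, Sdha had -0.18 (SE 0.14), Sdhb 0.00 (SE 0.14), Sdhc -0.05 (SE 0.15) and Sdhd 0.01 (SE 0.15). Atp5k, with the largest macrophage difference, had 9.22 and 9.17 in control and 9.29 and 8.96 in knockout livers, a difference of -0.06 (SE 0.15). Of the carriers beside the chain, Slc25a4, the muscle form of the adenine nucleotide translocator, had -0.38, and Cycs, cytochrome c, 0.25; neither was called.

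A single fit over both tissues tested the macrophage difference minus the liver difference. By limma's adjusted p 0 members were called, as were 0 of 15548 genes (0%). At an unadjusted p under 0.05 there were 3 members, against 313 genes (2.01%). These were Cox8b, at 0.40 (SE 0.15), Ndufa4l2, at -0.45 (SE 0.18), and Uqcr10, at -0.44 (SE 0.20). Ndufa1 had -0.50 (SE 0.30), Atp5k -0.46 (SE 0.23), Atp5d 0.16 (SE 0.18) and Ndufb3 0.12 (SE 0.24). In complex II, Sdha had 0.25 (SE 0.14) and Sdhc -0.22 (SE 0.25). The median over members was -0.12, with 70 of 92 below 0, where all genes had -0.01. No member's macrophage difference was thus shown to differ from its liver difference after adjustment, and sex, age and diet change with the tissue. Leaving out 1 macrophage array at a time gave from 1 to 9 members at an unadjusted p under 0.05, and 0 called. Genes over all at that unadjusted p were not counted in these fits.

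Between the control tissues, most respiratory chain genes were higher in liver than in macrophages relative to each array's median. Of 92 members, 83 were called higher in control liver, against 31.1% of 15560 genes, and 2 lower, against 36.0%. The median difference was 0.88, where all genes had -0.02. It was 0.79 for complex I (34 of 34 called higher), 0.97 for complex II (4 of 4), 1.08 for complex III (8 of 8), 0.70 for complex IV (13 of 17), 0.91 for complex V (16 of 17) and 0.57 for the assembly factors (8 of 12). The tissues also differ in sex, age, diet and processing, which cannot be told apart from tissue here. The labelled tissues carried their markers: 7 of 7 hepatocyte markers were called higher in liver, with a median of 8.06, and 7 of 8 macrophage markers lower, with -2.35.

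The size and, for many members, the direction of this difference depended on the scale. Macrophage arrays had higher medians than liver arrays, so in the deposited values without centring the median of all genes was -0.80. On that scale 28 members were called higher in liver and 16 lower, 52 of 92 had a higher mean, and the members' median was 0.10. Over all genes 13599 of 15560 were called on that scale, counting both directions. Complexes II and III kept 4 of 4 and 8 of 8 members higher, complex V 11 of 17, complex I 17 of 34 and complex IV 8 of 17. The members' median lay above that of all genes on both scales. On the knockout arrays, centred in the same way, 81 members were called higher in liver and 1 lower. Of all 15506 genes in that fit, 9174 were called, counting both directions.

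**Figure D4:**
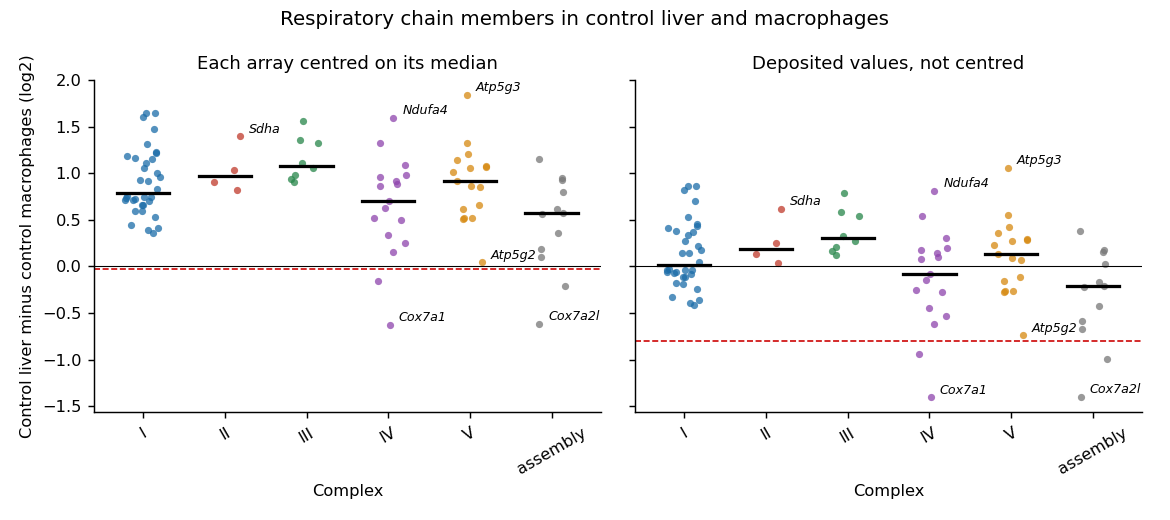
Control liver minus control macrophages for each member (log2) by complex, with each array centred on its median (left) and in the deposited values (right); black bars are medians of the complex and dashed red lines the median of all genes tested. On the left 88 of 92 points lie above 0, with Atp5g3 highest at 1.84 and Cox7a1 and Cox7a2l lowest at -0.62 and -0.62; on the right the line moves to -0.80 and 52 points lie above 0.

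The genes of the ATP synthase c subunit differed from one another here, although they encode the same mature protein. Values are log2 relative to the array median. Atp5g3 had 4.16, 4.24 and 4.39 on control macrophage and 6.17 and 6.03 on control liver arrays, a difference of 1.84 (SE 0.11), with limma adjusted p = 4.9e-07. Atp5g1 had 2.44, 2.67 and 2.64 against 3.92 and 3.91, a difference of 1.33 (SE 0.11), with limma adjusted p = 4.4e-06. Atp5g2 had 4.81, 4.83 and 4.94 against 4.90 and 4.91, a difference of 0.04 (SE 0.10), with limma adjusted p = 0.73. Liver lay above macrophages on every array for Atp5g3 and Atp5g1, and the tissues overlapped for Atp5g2 on its brightest probe set. On the dimmest Atp5g2 probe set both liver arrays lay above every macrophage array relative to the array median. Its deposited values were 11.22, 11.22 and 11.16 in macrophages and 10.57 and 10.66 in liver. On the remaining Atp5g2 probe set the tissues overlapped, so the reading of this gene depends on the probe set. Without centring the differences were 1.06 for Atp5g3, 0.55 for Atp5g1 and -0.74 for Atp5g2, so the sign of Atp5g2 turned.

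Isoforms of complex IV differed as well. Cox7a1, the heart and muscle form, had 0.36, 0.50 and 0.58 relative to the array median in macrophages and 0.09 and -0.38 in liver, a difference of -0.62 (SE 0.15), with limma adjusted p = 0.0046. Both liver arrays lay below the macrophage arrays. Its widespread partner Cox7a2 had a difference of 0.86 (SE 0.12), with limma adjusted p = 1.5e-04. Cox6a1, the liver form of its pair, had 1.32 (SE 0.10) and the muscle form Cox6a2 0.33 (SE 0.12), both called. Cox4i1 had 0.63 (SE 0.12), which was called, and Cox4i2 -0.16 (SE 0.12), which was not. Cox6b1 had 0.98 (SE 0.11), called, and Cox6b2 0.25 (SE 0.12), not called. Cox8a had 0.70 (SE 0.11), Cox8b 0.52 (SE 0.10) and Ndufa4l2 0.50 (SE 0.10), all called. Levels of Cox4i2, Cox6b2, Cox7a1 and Cox8b lay from -0.67 to 0.58 relative to the array medians in both tissues. Without centring, the sign turned from higher to lower for 36 of 92 members, 31 of them called with centring. Among the listed isoforms of complex IV these were Cox4i1 (-0.15), Cox8a (-0.08), Cox8b (-0.26), Cox6a2 (-0.45), Cox6b2 (-0.53) and Ndufa4l2 (-0.28).

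Among single subunits of complex I, Ndufv1, the flavoprotein where NADH is oxidized, had 2.86, 2.53 and 2.61 in macrophages and 4.37 and 4.24 in liver, a difference of 1.65 (SE 0.13), with limma adjusted p = 2.2e-06. Every liver array lay above every macrophage array. The accessory subunit Ndufb9 had a difference of 1.64 (SE 0.12), Ndufs6 of 1.60 (SE 0.12) and the core subunit Ndufs3 of 1.48 (SE 0.10). In complex III, the small subunit Uqcrq had 1.56 (SE 0.11), Uqcrc2 1.36 (SE 0.13) and Uqcr11 1.32 (SE 0.12). In complex IV, Ndufa4 had levels of 4.37, 4.41 and 4.61 in macrophages and 6.11 and 6.00 in liver, a difference of 1.59 (SE 0.11), and Cox5b, which binds zinc, a difference of 0.89 (SE 0.10). In complex II the difference was 1.40 (SE 0.13) for Sdha, 1.03 (SE 0.12) for Sdhb, 0.91 (SE 0.12) for Sdhc and 0.82 (SE 0.12) for Sdhd. In complex V, the stalk subunit Atp5o had 1.20 (SE 0.11) and Atp5k 0.87 (SE 0.10). All 15 of these genes were called, and all kept their sign without centring.

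Ndufa1 and Ndufb7 had the smallest complex I differences, at 0.36 (SE 0.11) and 0.39 (SE 0.11); both were called, and both turned negative without centring, at -0.42 and -0.39. Of the assembly factors, Cox7a2l had 3.56, 3.48 and 3.89 in macrophages and 3.07 and 2.98 in liver, a difference of -0.62 (SE 0.14), with limma adjusted p = 0.0028. Ndufaf1, an assembly factor of complex I, had 1.16 (SE 0.11). Around the chain, 11 of 15 genes of the tricarboxylic acid cycle were called higher in liver, with a median of 0.85; Suclg2, a subunit of succinate-CoA ligase, had 3.49 and Fh1, fumarase, 2.47. Mitochondrial ribosomal proteins were called higher for 51 of 77 and lower for 5, with a median of 0.49. Cytosolic ribosomal proteins had a median of -0.18, with 9 called higher and 20 lower of 57. The carrier Slc25a4 had -2.34 and was called lower, as was the transcription factor gene Nrf1, at -0.92.

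In the aorta pools, no member reached a 2-fold difference. Of 87 members on that array, 84 passed the filter (Cox4i2, Cox6b2 and Cox7c did not), and 0 of them were past 2-fold on the log2(signal + 16) scale, against 90 of 7098 genes (1.27%). The median difference was 0.06, with 49 higher and 35 lower in the knockout pool, where all genes had -0.01. By complex it was 0.00 for complex I, 0.02 for complex II, 0.07 for complex III, 0.19 for complex IV (11 of 13 higher), 0.09 for complex V (12 of 17 higher) and -0.11 for the assembly factors. When each array was centred on its median, the median was -0.08 over all genes and -0.02 over members, with 33 higher and 51 lower, so the direction of the members' median turned. With a pool on 1 array in each genotype, these differences have no replicate check.

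Cox6a2, the muscle form of a complex IV subunit, had a signal of 789 in control and 492 in knockout aorta, a difference of -0.66 on the log2(signal + 16) scale. Ndufb1, a complex I subunit near the filter, had 38.6 and 17.9, a difference of -0.69. These were the lowest members. Skeletal muscle markers were lower in the knockout pool for 10 of 10, and their summed signal was 12823 in control and 7779 in knockout; Myh2, a fast myosin, had 1324 and 465. The part of skeletal muscle in the Cox6a2 difference was not tested. Cox7a1 and Cox8b, which muscle shares with brown fat, differed less: Cox7a1 had 1974 and 1916 (-0.04), and Cox8b 2923 and 3234 (0.15). The brown fat gene Ucp1 had 2598 and 2754, and the brown adipocyte markers, which include both isoforms, summed to 11803 and 11601. Of these markers 5 of 7 were lower in the knockout pool: Ppara, with 287 and 172 (-0.69), Dio2, with 276 and 187 (-0.52), Elovl3, with 1213 and 905 (-0.42), Cidea, with 2532 and 2433 (-0.06), and Cox7a1. Endothelial markers were lower for 6 of 6, with sums of 1421 and 1129, and fibroblast markers were lower for 0 of 6, with sums of 4860 and 6205. Smooth muscle markers, which define the aortic wall, summed to 3949 and 4686, and cardiac markers to 3310 and 3875. B cell markers, of which 3 of 6 passed the filter and 0 were lower, summed to 114 and 699. The part of these cell types in the members' differences was not tested.

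Several widespread forms read higher in the knockout pool, by less than 2-fold. In complex IV, the control and knockout signals, with their difference, were 2626 and 3288 (0.32) for Cox5a, 2908 and 3461 (0.25) for Cox6b1, 2741 and 3180 (0.21) for Cox7a2 and 2741 and 3050 (0.15) for Cox4i1. Cox6a1 had 2572 and 2981 (0.21), Cox8a 1613 and 1744 (0.11) and Ndufa4 2104 and 2253 (0.10). The highest difference in complex IV was that of the dim testis form Cox8c, with 35.7 and 52.5 (0.41). Among the other complexes the highest were Atp5pb, subunit b of the ATP synthase, with 2279 and 2789 (0.29), Uqcrb of complex III, with 3451 and 4081 (0.24), and Ndufb8 of complex I, with 2101 and 2427 (0.21). The c subunit genes did not all point the same way. Atp5g1 had 456 and 338 (-0.42), Atp5g2 857 and 660 (-0.37) and Atp5g3 1790 and 1964 (0.13). Atp5k had 1624 and 1819 (0.16). In complex II, Sdha had 1812 and 1762 (-0.04), Sdhb 2139 and 2265 (0.08), Sdhc 498 and 530 (0.09) and Sdhd 1100 and 992 (-0.15). Of 42 members with several probe sets past the filter, 23 had probe sets on both sides of 0, so the direction of these 23 depends on the probe set. Among those named here, the other probe set past the filter had 1910 and 1677 (-0.19) for Uqcrb, 1481 and 1439 (-0.04) for Atp5pb, 1600 and 1428 (-0.16) for Cox8a and 266 and 370 (0.46) for Sdhd, each opposite in sign to the brighter one.

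Beside the members, cytosolic ribosomal proteins were higher in the knockout pool for 38 of 41 (median 0.31), and mitochondrial ribosomal proteins were lower for 58 of 74 (median -0.16). Of the regulators of mitochondrial biogenesis, 8 of 10 were lower, and 1 was past 2-fold: Ppargc1a, a coactivator of mitochondrial genes, had 228 in control and 91.8 in knockout. Its relative Ppargc1b had 492 and 239. Cycs, cytochrome c, had 3561 and 3941.

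**Figure D5:**
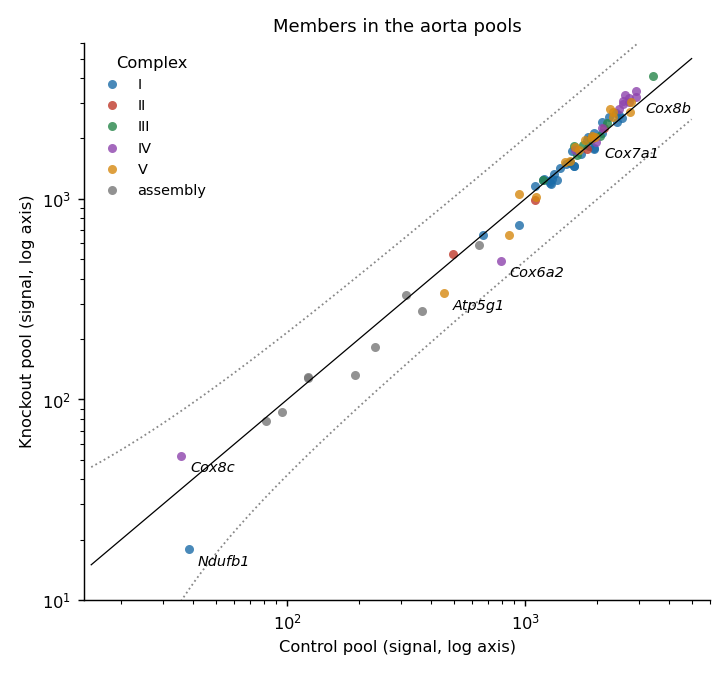
Signal of each member in the control pool (horizontal) and the knockout pool (vertical) of the aorta, on log axes and coloured by complex; the solid line is equality and the dotted lines are 2-fold on the log2(signal + 16) scale. All 84 points lie between the dotted lines, with Cox6a2 (789 and 492) and Ndufb1 (38.6 and 17.9) farthest below equality.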

How the data were processed

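RNA was hybridized to 2 Affymetrix array types, 1 for macrophages and liver and another for aorta. By their ranges, the deposited macrophage and liver values are log2 summaries that the authors had normalized, and the deposited aorta values are linear intensity. Affymetrix Expression Console was used, per the submitters' processing notes, with algorithm and version not given in the sources used here. No normalization was repeated. Of 35557 and 22690 probe sets, 21789 and 20393 had 1 symbol in the platform annotation, 1621 and 691 had several, and 12147 and 1606 were unlisted. A gene was represented by its brightest probe set. Tests left out dim genes, with a mean in the lowest 30 percent of probe sets; in the aorta 1 pool had to reach a signal of 32.6.

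Knockout minus control was fitted within macrophages and within liver over all genes with limma 3.58.1 (lmFit and eBayes, no covariate) in R 4.3.3; a call was a Benjamini-Hochberg adjusted p under 0.05. Liver minus macrophages used control arrays centred on their medians, and a further fit tested macrophage difference minus liver difference. The aorta was described on log2(signal + 16), counted at 2-fold. The labels call the arrays biological replicates without naming the animals, so a p-value reflects only array-to-array spread. In macrophages the arrays of a genotype differed in age, so they were not repeats of the same sample. Their spread also holds age and batch. In liver the spread may be technical. The fits were tested on simulated data with independent noise and a shift larger than any member difference described here. That check does not show whether differences of the size seen between genotypes could be called.

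The members and lists were chosen with earlier results of these data known. Named by rule were, per comparison and complex, the members with the largest higher and lower difference, the paired isoforms, Atp5k, complex II, and up to 3 called members per complex and direction; others were named after their values were seen. Alternatives were no filter, the mean of probe sets, other scalings, batch and replicate blocks, each array left out, other pseudocounts and, added after seeing the data, only genes without identical values in batch 2. Same-numbered macrophage arrays shared an age, and their deviations from group means correlated at 0.40, 0.03 and 0.50. The arrays numbered 1 shared a batch, as did those numbered 3, and those numbered 2 did not. The correlations thus cannot tell a shared age from a shared batch. The main fit did not take the numbers as pairs, and the replicate block did. Protein sequences were not used here.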

Additional observations from a re-analysis of the deposited data

How the results depend on the processing

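In macrophages and in liver 0 members were called under every alternative run. The macrophage median over members stayed below 0, at -0.110 with arrays centred, -0.121 with quantile normalization, -0.180 to -0.0944 with each array left out and -0.0527 within batch 2. The liver median ran from -0.0554 to 0.0210 with each array left out. Between control tissues, the deposited values without centring gave 44 members called in place of 85 and a median of 0.0964, because the all-gene median moves with the scale; 36 of 92 members turned from higher to lower, and of the listed isoforms these were Atp5g2 (-0.738), Cox4i1 (-0.150), Cox6a2 (-0.447), Cox6b2 (-0.531), Cox8a (-0.0760), Cox8b (-0.257) and Ndufa4l2 (-0.277). Over all genes, 13599 were called without centring in place of 10442. Knockout arrays gave a median of 0.955, and leaving out an array 0.820 to 0.939. With a macrophage array left out 83 members were called, where 9750 to 10580 genes were called over all. In the aorta, a pseudocount of 1 put 1 member, Ndufb1, past 2-fold; the median was -0.0167 with arrays centred, 0.0390 with the mean of probe sets, 0.0528 without the filter and 0.0521 with a pseudocount of 64. The cause was not tested for the other changes. With the replicate block, 9 macrophage members in place of 11 had an unadjusted p under 0.05, with 0 called and a median of -0.142. Genes over all at that unadjusted p were not counted with this block. In liver 0 members were called with it, with 23 genes over all in place of 1. The small number of arrays limits the precision, and the aorta pools give no error.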
